A study of Mus musculus with 54 samples.

Results

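The 4 genes described here, Cubn, Trdmt1, Vim and St8sia6, lie side by side on mouse chromosome 2. On mm10 the body of Cubn runs from 13276338 to 13491876 on the minus strand, that of Trdmt1 from 13504879 to 13544797 (minus), that of Vim from 13574311 to 13582826 (plus) and that of St8sia6 from 13651018 to 13794734 (minus). Replication timing had been deposited for windows of 50 kb, and the windows that overlap these gene bodies were taken: 5 for Cubn, 1 for Trdmt1, 1 for Vim and 3 for St8sia6, which makes 10 of the 43941 autosomal windows. They reach from 13250001 to 13800000, with 1 window between Vim and St8sia6 that holds none of the 4 bodies. The genes were chosen for the timing difference between their alleles in embryonic stem cells (ESCs), so that difference is given below as a description and without a test.

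Replication timing comes from Repli-Seq: BrdU marks newly made DNA, cells are sorted by DNA content into an early and a late fraction of S phase, and the marked DNA of both fractions is sequenced. The cells are F1 hybrids of mouse strains, so that each of 27 profiles (1 early and 1 late library each) has a value for either parental genome. The values, read here as log2 of early over late signal, are higher where a locus replicates earlier, and their logarithm's base is not stated in the sources used here. The 129 by Cas (castaneus) hybrids gave 13 profiles of 5 ESC lines, 3 profiles of neural precursor cells (NPCs, analysed at day 11) derived from 2 of those lines, and 8 profiles of mouse embryonic fibroblasts (MEFs) from 4 embryos. The ESC lines F121, F121-6 and F121-9 (labelled female) and F123 (male) carry the cross label 129 / cas, and Cas129 (female) the label cas / 129. F121-6 and F121-9 were grown both in serum-free 2i medium and on inactivated MEF feeders, with 2 profiles in each condition, and the other ESC lines in 2i. NPCs came from F121-9 (1 profile) and Cas129 (2 profiles). The MEF embryos are cas / 129, embryos 1 and 2 labelled female and embryos 3 and 4 male. An extraembryonic endoderm (XEN) line from C57B6 and Cas (2 profiles, labelled female) and V6.5 ESCs from C57B6 and 129 (1 profile in 2i, labelled male) have other parents. Both are given as values only.

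Early replication goes along with open chromatin and active genes in mammalian cells, and large domains switch their time of replication during differentiation. Vim encodes vimentin, the intermediate filament protein of fibroblasts and other mesenchymal cells, which neural precursors make as well. Cubn encodes cubilin, an endocytic receptor of kidney proximal tubule, intestine and yolk sac endoderm, Trdmt1 a methyltransferase that modifies cytosine in tRNA, and St8sia6 a sialyltransferase of the Golgi.

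RefSeq promoter entries (GRCm38.p6, the same assembly as mm10) were found for all 4 genes, and the 250 bases before the start site were read. The sequences of Vim and Cubn are shown because these neighbours, whose timing moved together, differ in base composition, and their CpG dinucleotides are in capitals (5′ to 3′ along the gene).
Vim, chr2:13574061-13574310, plus strand: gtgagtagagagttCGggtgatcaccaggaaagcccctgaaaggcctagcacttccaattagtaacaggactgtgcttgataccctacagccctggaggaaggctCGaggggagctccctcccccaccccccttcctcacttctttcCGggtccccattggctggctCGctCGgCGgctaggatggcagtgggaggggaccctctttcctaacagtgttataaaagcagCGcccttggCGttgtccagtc
Cubn, chr2:13491877-13492126, minus strand: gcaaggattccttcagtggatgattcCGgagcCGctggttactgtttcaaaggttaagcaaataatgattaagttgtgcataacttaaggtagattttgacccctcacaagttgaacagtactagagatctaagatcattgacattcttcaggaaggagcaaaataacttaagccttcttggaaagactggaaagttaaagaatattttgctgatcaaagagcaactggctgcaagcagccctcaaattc
The Vim stretch holds 8 CpGs at 58.4% G and C, the Cubn stretch 2 at 39.6%, the Trdmt1 stretch 9 at 53.6% and the St8sia6 stretch 30 at 70.8%. The median of 32851 mouse promoters of this length was 6 CpGs, and 94.1% of them held fewer than St8sia6 while 18.8% held fewer than Cubn. On either strand, the letters TATAAA occurred in Vim at position -32 from the start and in 12.4% of all these promoters, and CCAAT occurred at 2 places in Vim and in 33.9% of all. GGGCGG, found in 32.7% of all, was in none of the 4 stretches. The table's start sites of Trdmt1 and St8sia6 lie inside the gene bodies used here, so their stretches are given by counts only. A window of 50 kb cannot place a timing value on a promoter, and no promoter feature was compared with timing.

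In ESCs the line mean of both alleles was below 0 at all 4 genes in every line, and the 129 copy replicated earlier than the Cas copy in each of the 5 lines. Autosomal means of these ESC columns were also below 0, from -0.67 (Cas in F123, replicate 1) to -0.59 (129 in F121-9 in 2i, replicate 1). A value below 0 is thus not by itself later than the average window. At Vim the 129 allele stood at -0.24 in F121, -0.15 in F121-6, -0.60 in F121-9, 0.54 in F123 and -0.51 in Cas129. The Cas allele stood at -1.57, -1.77, -2.11, -1.55 and -2.02 in the same lines. The highest Cas line mean lay below the lowest 129 line mean, so the alleles did not overlap as line means. Single profiles of different lines and media did overlap. Cas reached -0.97 in replicate 2 of F121-6 in 2i, and 129 fell to -1.03 in replicate 1 of F121-9 on feeders. The difference at Vim, 129 minus Cas, was 1.33, 1.62, 1.51, 2.09 and 1.50 (mean 1.61 ± 0.29, SD, n = 5 lines), and over the 13 single profiles it ran from 1.24 to 2.19. Each value is an average over the sorted cells of a culture, so a mixture of early and late cells and an intermediate time in all cells cannot be told apart.

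Cubn, the largest of the genes, was the latest of the 4. Its 129 allele averaged -1.07 ± 0.45 and its Cas allele -2.46 ± 0.26 (SD, n = 5), and the difference was 1.34 in F121, 1.03 in F121-6, 1.17 in F121-9, 2.06 in F123 and 1.36 in Cas129. Within the gene the mean difference grew from 1.03 in the window at the 3′ end to 1.65 in the window that holds the 5′ end. At Trdmt1 the alleles averaged -0.34 ± 0.47 and -1.99 ± 0.18, with differences of 1.52, 1.50, 1.37, 2.34 and 1.52 in the same order of lines. At St8sia6 they averaged 0.01 ± 0.63 and -1.64 ± 0.31, and the difference was 1.23 in F121, 1.94 in F121-6, 1.64 in F121-9, 2.14 in F123 and 1.29 in Cas129.

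F123 had the largest difference at all 4 genes. Over the 10 windows it reached 2.11, against 1.33 to 1.41 in the other lines. Its Cas allele, at -1.91, lay just above the range of the other line means (-2.40 to -1.92). Its 129 allele, at 0.20, lay above theirs (-1.03 to -0.58). The means of F121-6 and F121-9 include feeder profiles, whereas F123 was grown in 2i only. Their 2i profiles alone averaged -1.32 and -1.85 for Cas, both above F123, and -0.0009 and -0.57 for 129, both below it. F123 is the only one of the 5 lines labelled male, and line and label cannot be told apart. Cas129, which has Cas first in its cross label, had a mean difference of 1.37 with 129 earlier, as the 129 / cas lines did. All 10 windows passed the limits used for other comparisons here (Benjamini-Hochberg adjusted p below 0.05 over all autosomal windows and a difference of at least 0.5), as did 25.2% of the 43941 autosomal windows. The genes were chosen on this contrast, so nothing is read from that count.

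The block of earlier 129 replication was wider than the 4 genes. Around Vim, the windows in which every ESC line had 129 earlier by 0.5 or more formed an unbroken run of 16 windows from 13250001 to 14050000, or 800 kb. Taken line by line the run measured 800 kb in F121-6 and F121-9, 950 kb in F121 and 1900 kb in F123 and Cas129. It began at Cubn in the all-line reading, since the window before it, in Rsu1, had 0.75 on average but 0.32 in F121-6 and 0.34 in F121-9. It went on past St8sia6 over a stretch where the next protein-coding gene body, that of Hacd1, starts at 14026831. Windows with all 5 lines at 0.5 or more made up 5.42% of the autosomal windows for 129 and 4.82% for Cas. They formed 832 runs with a median length of 4 windows, of which 36 were at least as long as the one around Vim. Neighbouring windows correlated at 0.975 to 0.994 within a profile, so windows are not independent.

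**Figure D1:**
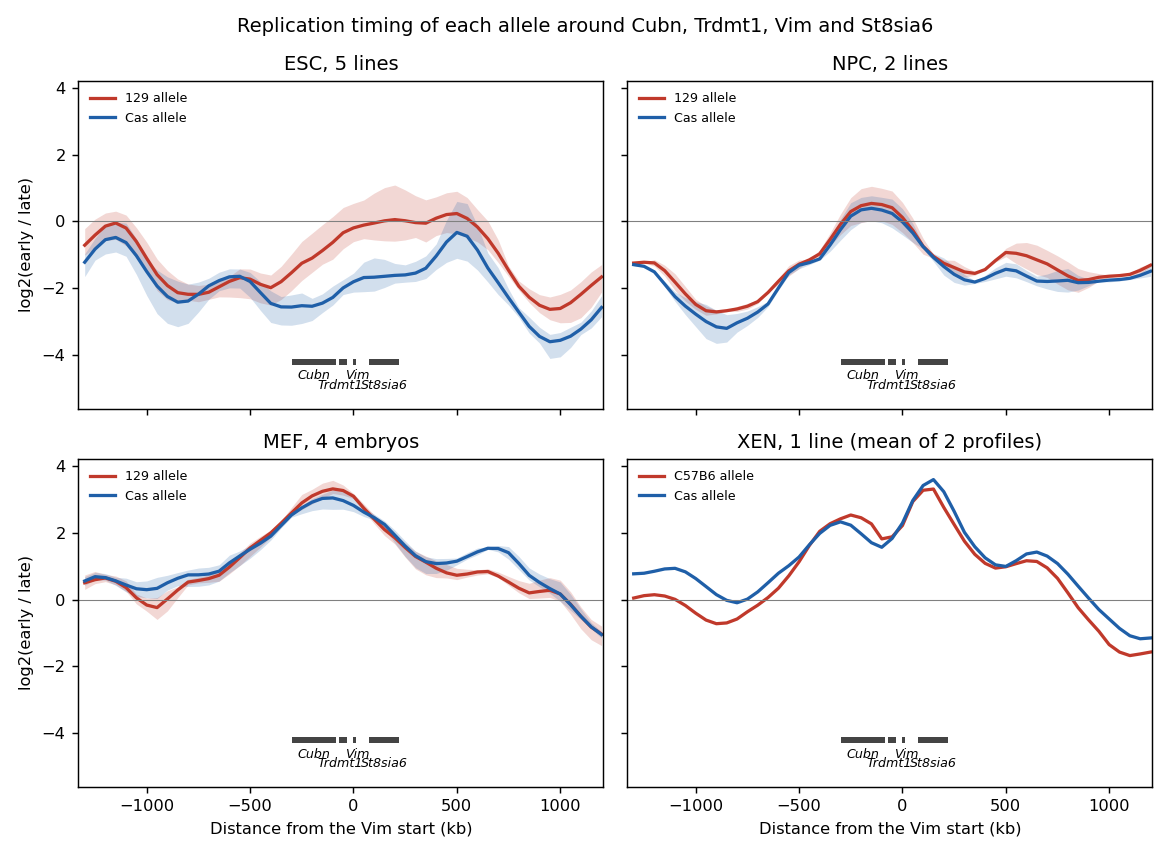
Timing (log2 of early over late signal) of each allele against distance from the Vim start in kb, for ESCs, NPCs, MEFs and the XEN line, with lines for the mean over lines or embryos, shading for their lowest to highest value and dark bars for the 4 genes. The 129 and Cas tracks part over the genes in ESCs, where they average -0.59 and -2.10 over the 10 windows, and run close together in NPCs and MEFs.

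In NPCs the allelic difference was small at all 4 genes. At Vim the alleles stood at -0.33 (129) and -0.40 (Cas) in the F121-9 profile, at 1.30 and 1.29 in replicate 1 of Cas129, and at -0.15 and -0.53 in replicate 2. The difference at Vim was thus 0.07 in the F121-9 line and 0.19 in the Cas129 line. At Cubn it was 0.07 and 0.22, at Trdmt1 0.10 and 0.24, and at St8sia6 -0.12 and 0.22 in these lines. Averaged over the 10 windows it was 0.12 ± 0.14 (SD, n = 2). None of the 10 windows was called by limma, and none had an unadjusted p below 0.05, where 4.71% of all autosomal windows were called.

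In MEFs the alleles were likewise close. At Vim the difference was -0.06 in embryo 1, 0.29 in embryo 2, 0.41 in embryo 3 and 0.46 in embryo 4, or 0.28 ± 0.24 (SD, n = 4). The window's unadjusted p in limma was 0.0499 and its adjusted p 0.151. At Trdmt1 the embryos had -0.10, 0.40, 0.32 and 0.59, at Cubn 0.20, 0.25, 0.00 and 0.26, and at St8sia6 -0.15, -0.03, -0.06 and -0.13. The sign was thus positive in 3 of 4 embryos at Vim and Trdmt1 and negative in 4 of 4 at St8sia6. None of the 10 windows was called in MEFs and 1 had an unadjusted p below 0.05, where 12.9% of all windows were called.

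The test of MEFs against NPCs, 2 cell types whose allelic values did not choose the genes, called none of the 10 windows, and none had an unadjusted p below 0.05. Their mean difference between the cell types was 0.00 (0.03 at Cubn, 0.13 at Trdmt1, 0.14 at Vim and -0.14 at St8sia6), with standard errors from 0.22 to 0.28 per window. Genome-wide 6.42% of windows were called in that test. A difference of several times these standard errors could go uncalled here, and any below 0.5 could not be called. In the same test the sialyltransferase gene St6gal1, at -0.57 ± 0.21 (SE), was not called. The absence of calls therefore does not show that the 2 cell types are equal. The step from ESCs to the other cell types was not tested, since the ESC values chose the genes.

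Embryos 1 and 3 do not match their sex labels: embryo 1, labelled female, had 1 X track that was flat, and embryo 3, labelled male, had 2 that were not. Without them the mean allelic difference of the 10 windows in MEFs was 0.19 instead of 0.12 and none was called. Per-allele depth is unknown, as no counts came with the values. p-values measure the spread between lines and embryos, pooled over ESCs, NPCs and MEFs in a single fit. NPCs gave 2 of its 11 units, so p-values for NPCs rest largely on the spread of ESC lines and embryos. NPC lines were not paired with the ESC lines they derive from.

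**Figure D2:**
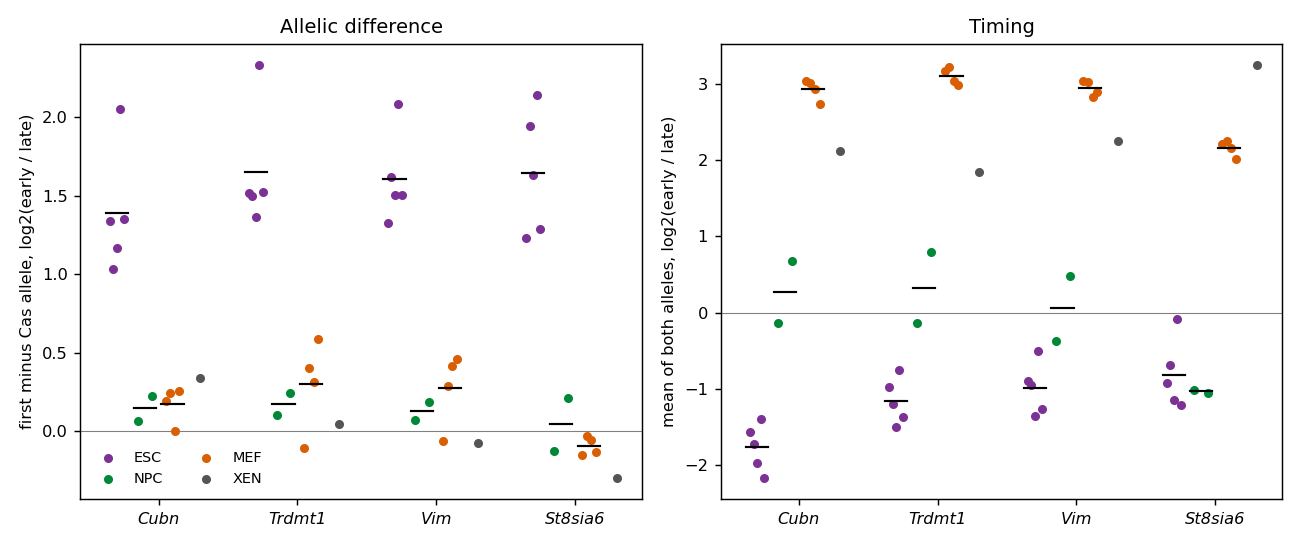
Allelic difference (left, 129 minus Cas, or C57B6 minus Cas for XEN) and timing (right, mean of both alleles), both in log2 of early over late signal, at each gene, with a point per ESC line, NPC line, MEF embryo or XEN line and a bar at the mean. ESC lines lie at 1.03 or more on the left at all 4 genes, and NPCs, MEFs and XEN at 0.59 or less.

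Timing itself, as the mean of both alleles, separated the cell types. At Vim it was -0.90 in F121, -0.96 in F121-6, -1.36 in F121-9, -0.50 in F123 and -1.27 in Cas129 ESCs. NPCs stood at -0.37 (F121-9) and 0.48 (Cas129), and MEFs at 3.05, 3.02, 2.83 and 2.90 in embryos 1 to 4. As line means, both NPC lines were earlier than every ESC line, and every embryo was earlier than both. Single profiles of ESCs and NPCs overlapped: F121-6 in 2i had -0.40 and -0.04, and the second of these was earlier than the NPC profile of F121-9 (-0.37) and replicate 2 of Cas129 NPCs (-0.34). Vim was earlier by 1.05 ± 0.25 (SE) in NPCs than in ESCs (limma, adjusted p = 0.00240), a call that was lost with 2i profiles only, and by 3.95 ± 0.20 in MEFs than in ESCs (adjusted p = 6.46e-11). MEFs were earlier than NPCs by 2.90 ± 0.26 (adjusted p = 1.97e-07). These standard errors pool the spread of the groups and leave NPC and parent ESC lines unpaired. At Vim the SD was 0.60 in NPCs (n = 2), against 0.34 in ESCs and 0.10 in MEFs, so the pooled spread understates that of the NPC lines.

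Of the 4 genes, Cubn had the largest mean difference from ESCs to either other cell type and the smallest from NPCs to MEFs (2.66). Its timing rose from -1.77 ± 0.31 (SD, n = 5) in ESCs to 0.27 ± 0.58 (n = 2) in NPCs and 2.94 ± 0.13 (n = 4) in MEFs. Trdmt1 rose from -1.16 ± 0.30 to 0.33 ± 0.66 and 3.11 ± 0.11. Both genes passed the limma test in each of the 3 comparisons in all their windows, with the spread pooled over cell types and lines unpaired. St8sia6 did not follow them in NPCs, where it stood at -1.02 in F121-9 and -1.05 in Cas129 against -1.22 to -0.09 in the ESC lines, and none of its 3 windows passed (estimates of 0.11, -0.25 and -0.52). The parent lines of the NPCs had -1.15 (F121-9) and -1.22 (Cas129) as ESCs. With those lines alone and the line as a block, the mean NPC minus ESC difference at St8sia6 was 0.15, against -0.22 with all 5 ESC lines. The F121-9 value averages ESC profiles in 2i (-0.63) and on feeders (-1.66), and the NPCs of that line, at -1.02, lay between them. The sign at St8sia6 thus depended on which ESC lines and media were compared. In MEFs it stood at 2.22, 2.25, 2.16 and 2.01, and all 3 windows passed with rises of 2.66 to 3.28 over ESCs.

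In all, 7 of the 10 windows were called earlier in NPCs than in ESCs (mean over the 10 windows 1.21), where 16.4% of all windows were called earlier. From ESCs to MEFs 10 of 10 were called earlier (mean 4.07, background 30.3%), and from NPCs to MEFs 10 of 10 (mean 2.86, background 25.7%). These comparisons share their ESC, NPC and MEF groups. The call at Vim in NPCs was lost without Cas129 NPCs, without replicate 1 of them, without the F121-9 or the Cas129 ESC line, or with 2i profiles only, each of which left 6 windows, Cubn's 5 and that of Trdmt1. The 2 Cas129 NPC profiles were far apart in timing at these genes, with means of 0.93 and -0.63 over the 10 windows, and the F121-9 NPC profile stood at -0.42.

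ESC and NPC columns as deposited had lower autosomal means than MEF and XEN columns, which moves every timing difference between these sets. Over all autosomal windows the median of MEF minus ESC timing was 0.38 as deposited and -0.26 once each column was centred on its median, and that of MEF minus NPC timing went from 0.35 to -0.29. Of the windows called between MEFs and ESCs, 68.8% were earlier in MEFs as deposited, 39.5% after median centring and 47.9% after quantile normalization. Between MEFs and NPCs these shares were 77.1%, 38.7% and 50.6%. The 10 windows kept their calls under both scalings, with means of 3.42 and 3.58 over ESCs and 2.22 and 2.38 over NPCs. Relative to the median window, the rise over ESCs was 3.68 as deposited.

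Taken per allele, the Cas copy covered more of the distance. Over the 10 windows the 129 allele went from -0.59 in ESCs to -0.08 in NPCs and 2.78 in MEFs, and the Cas allele from -2.10 to -0.19 and 2.66. The rise from ESCs to NPCs was 0.51 for 129 and 1.91 for Cas, and that from NPCs to MEFs was 2.86 for both. At St8sia6 the 129 allele stood at -0.33 in F121-9 ESCs and -1.08 in their NPCs, and at -0.57 and -0.95 in Cas129, while the Cas allele went from -1.97 to -0.96 and from -1.86 to -1.16. These figures restate the ESC difference that chose the genes and are not tests.

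St8sia6 changed its place relative to Cubn between cell types, while Trdmt1 was earlier than Cubn on average in ESCs, NPCs and MEFs. In ESCs St8sia6 was earlier than Cubn in each of the 5 lines, by 0.64 in F121, 1.04 in F121-6, 0.82 in F121-9, 1.32 in F123 and 0.96 in Cas129. In NPCs it was later than Cubn, by values of -0.88 (F121-9) and -1.73 (Cas129) for St8sia6 minus Cubn. In MEFs the same quantity was -0.82, -0.77, -0.77 and -0.73 in embryos 1 to 4. Both alleles showed the sign of their cell type in every line and embryo. The earliest window within 1 Mb of the genes lay in Cubn in both NPC lines (13400001 to 13450000, at 0.02 and 0.91). In MEFs it lay in Cubn in embryos 1 to 3 and in the Trdmt1 window in embryo 4, at 2.996 to 3.326. In ESCs the earliest window of the region lay outside the 4 genes in all 5 lines.

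The XEN line, an endoderm derivative of the blastocyst, had the region early but with another summit. Its timing was 3.26 at St8sia6, 2.25 at Vim, 2.12 at Cubn and 1.85 at Trdmt1 (means of 2 profiles of 1 line, no test). St8sia6 was earlier than Cubn by 1.13, as in ESCs, and the earliest window (13700001 to 13750000, at 3.45) lay in St8sia6. The difference between C57B6 and Cas alleles changed sign between the profiles: at Vim it was -0.76 in replicate 1 and 0.61 in replicate 2, and at St8sia6 -0.79 and 0.20. Only at Cubn did both profiles have C57B6 earlier (0.40 and 0.28). Over the 10 windows the profiles gave -0.14 and 0.30.

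V6.5 ESCs also had timing below 0 at all 4 genes, with -0.72 at Cubn, -0.69 at Trdmt1, -0.93 at Vim and -1.75 at St8sia6. St8sia6 was later than Cubn there, by -1.03, unlike in the 5 hybrid lines. The 129 and C57B6 alleles of V6.5 differed by at most 0.0064 in any of the 10 windows. This profile's alleles were close over the whole genome (median absolute difference 0.0289, and below 0.02 in 42.5% of windows), whereas the medians of the other 26 profiles were 0.208 to 0.602. The near identity is therefore not particular to these genes. V6.5 is labelled male, yet the interquartile range of its values along the X was 3.57 for either allele. F123, also labelled male, had 0.19 and 0.20 for Cas in its 2 profiles. Either the label of V6.5 or the separation of its 2 alleles is thus in doubt, which was not tested. Nothing is read from V6.5 about how 129 and C57B6 alleles compare.

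**Figure D3:**
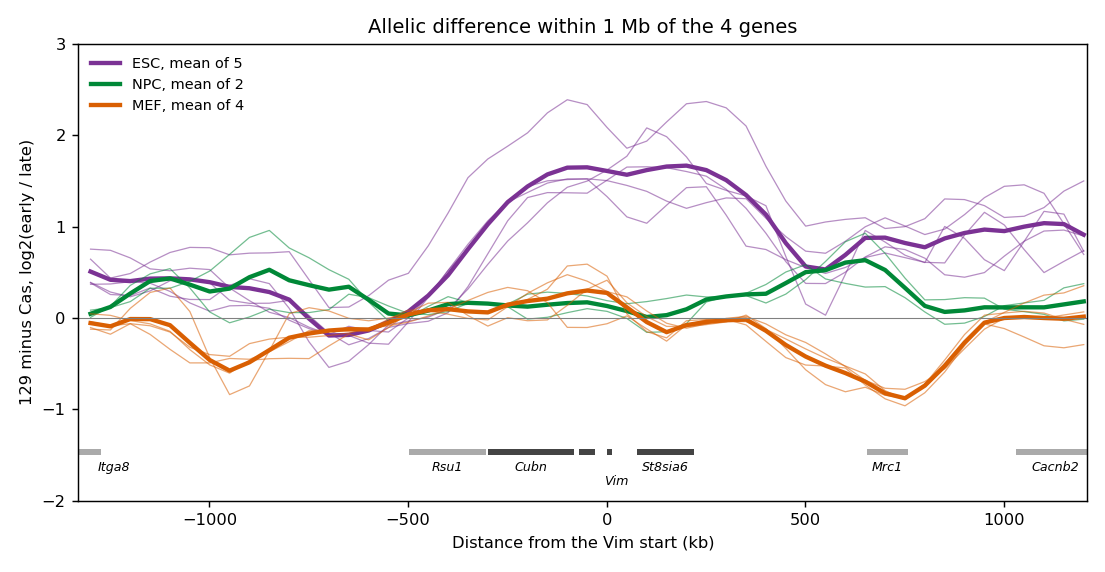
Allelic difference (129 minus Cas, log2 of early over late signal) against distance from the Vim start in kb, with thin lines for single ESC lines, NPC lines and MEF embryos, thick lines for their means, dark bars for the 4 genes and grey bars for Rsu1, Mrc1 and the bodies at the edges. The ESC mean stays above 1 over the 4 genes, and the MEF mean dips to -0.88 at the edge of Mrc1, where the ESC and NPC means stay above 0.

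The protein-coding genes within 1 Mb put these values in place. Upstream, Itga8 (0.52), Mindy3 (0.42) and Rsu1 (0.51) had smaller mean ESC differences with 129 earlier in all 5 lines, and Pter (-0.12) and C1ql3 (-0.04) had differences of mixed sign. Downstream, Hacd1 (0.69), Stam (0.55), Tmem236 (0.78), Mrc1 (0.86), Slc39a12 (0.86) and Cacnb2 (0.77) had 129 earlier in all lines. MEFs went the other way over part of that stretch: Mrc1, the mannose receptor of macrophages, had -0.80 ± 0.05 (SD, n = 4), with -0.86 to -0.74 in the embryos and all 3 windows called. Tmem236 had -0.65, with both windows called, and Stam (-0.47) and Slc39a12 (-0.51) were called in 1 of 2 and 2 of 3 windows. NPCs at Mrc1 had 0.30 and 0.69, and the test of MEFs against NPCs called all 3 windows there. The 4 genes thus lay beside a stretch in which MEFs had Cas earlier, while their own windows were called in no MEF test of the alleles.

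Growth on feeders moved the neighbourhood later in ESCs. At Vim the 2i profiles of F121-6 had timing of -0.40 and -0.04 and its feeder profiles -1.62 and -1.76. F121-9 had -0.83 and -0.86 in 2i and -1.94 and -1.80 on feeders. The conditions did not overlap in either line, and Vim was later on feeders by a difference of -1.24 ± 0.20 (SE; limma, adjusted p = 0.00240, 8 profiles with the line as a covariate).

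St8sia6 moved most between the media. It went from 0.32 and 0.39 in 2i to -1.68 and -1.78 on feeders in F121-6, and from -0.60 and -0.66 to -1.74 and -1.59 in F121-9. The mean difference was -2.08 in F121-6 and -1.03 in F121-9, and all 3 windows were called. Trdmt1 differed by -1.10 ± 0.19 (adjusted p = 0.00335). Cubn differed by -0.65 on average, with 2 of 5 windows called, both towards its 5′ end. In all 7 of 10 windows were called later on feeders (mean -1.03), where 7.86% of all windows were. Of all windows called between the media, 38.5% were earlier on feeders as deposited and 52.8% after median centring, while the 7 calls held under both scalings. Repeat profiles may share a culture history, and p-values here measure the spread between profiles of these 2 lines.

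Both alleles took part in the shift. Over the 10 windows the 129 allele was later on feeders by a difference of -1.16 in F121-6 and -0.72 in F121-9, and the Cas allele by -1.34 and -0.89. The allelic difference was 1.32 in 2i and 1.51 on feeders in F121-6, and 1.28 and 1.44 in F121-9. The largest step was at St8sia6, from 1.61 to 2.27 in F121-6 and from 1.43 to 1.84 in F121-9. None of the 10 windows was called by limma for a change of the allelic difference with medium, and 2 of them, both in St8sia6, had an unadjusted p below 0.05 (adjusted p = 0.321 and 0.394). The share called over the genome was 0.00%, although 5104 windows had an unadjusted p below 0.05, so this test called nothing anywhere. For a difference of that change between the lines it was again none of the 10, none at an unadjusted p below 0.05, and 0.00% of all windows, with 3747 at an unadjusted p below 0.05.

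**Figure D4:**
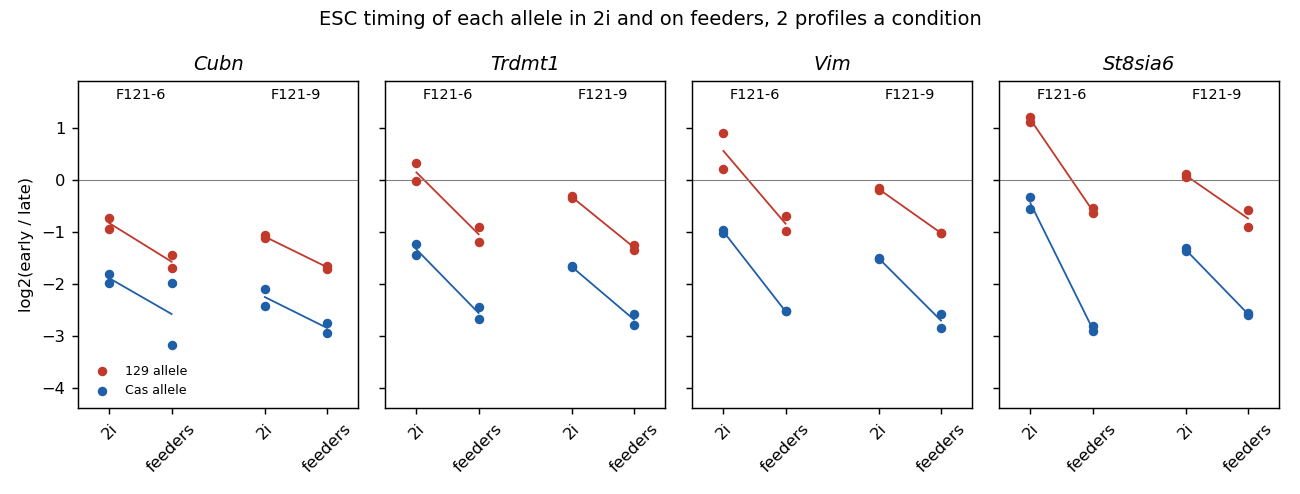
Timing (log2 of early over late signal) of the 129 and Cas alleles of each gene in F121-6 and F121-9 ESCs in 2i and on feeders, a point per profile with lines joining the means. Both alleles were later on feeders at all 4 genes, by most at St8sia6 in F121-6.

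Lists of genes related to each member by function were set beside them, each gene read from the window at its midpoint. Of 17 intermediate filament genes, relatives of Vim, none was called for an allelic difference in ESCs, where 25.2% of all windows were called, and none in MEFs or NPCs. Krt8 and Krt18 share a window, so the 17 genes are not as many separate windows. The median ESC difference of the list was 0.10, against 0.01 over all windows. For NPC minus ESC timing, Synm (1.47 ± 0.22, SE) and Krt5 (1.12 ± 0.33) were earlier and Nefl (-1.13 ± 0.19) and Nefm (-1.13 ± 0.18) later, where 32.5% of windows were called in either direction. For MEF minus ESC timing 4 were called, all earlier in MEFs (Des 1.19, Prph 1.12, Synm 2.72 and Krt5 1.85, background 44.0%). Des, the muscle relative of vimentin, was early in all 3 cell types (2.54, 3.20 and 3.72), while Vim stood at -0.997 in ESCs.

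Of 12 genes for cubilin's partners in endocytic uptake 11 had a window. In ESCs 3 were called, a share near the 25.2% of all windows, all with Cas earlier, namely Cblif, the gastric intrinsic factor (-0.92 ± 0.09), Myo6 (-0.76 ± 0.09) and Ap2b1 (-0.75 ± 0.12). Their list median was -0.04. Lrp2, which encodes the megalin receptor that works with cubilin, had 129 minus Cas of 0.34 and was not called. For MEF minus ESC timing the adaptor gene Dab2 (3.95 ± 0.16), Lrpap1 (1.36) and Alb (2.16) were earlier and Cblif (-1.58) later, 4 of 11 against 44.0% of all windows. In MEFs Dab2 (-0.53) and Myo6 (-0.61) were called with Cas earlier, 2 of 11 against 12.9% of all windows, and in NPCs none of the 11 was.

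Of 9 listed methyltransferase genes and partners, 8 had a window. None was called for an allelic difference in ESCs or NPCs, where 25.2% and 4.71% of all windows were called. Nsun3 was called in MEFs (-0.52 ± 0.13), 1 of 8 against 12.9% of all windows. It was also the 1 gene of the 8 called between NPCs and ESCs (-1.44 ± 0.21, later in NPCs), against 32.5% of all windows. None was called in timing between ESCs and MEFs, against 44.0% of all windows. There Dnmt3a (-0.89), Dnmt3b (-0.48), Nsun6 (-0.53) and Dnmt1 (0.88) had an adjusted p below 0.05 in limma but missed the size of 1. Trdmt1, at 4.27 for MEF minus ESC timing, stands apart in value from that list's median of -0.31, and this was not tested.

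Of 19 other sialyltransferase genes 16 had a window. In ESCs St3gal1 (2.33 ± 0.16) and St6galnac3 (1.16 ± 0.11) were called with 129 earlier, and St8sia2 (-0.93), St3gal6 (-0.55) and St6gal2 (-0.68) with Cas earlier, 5 of 16 against 25.2% of all windows. For MEF minus ESC timing 4 were earlier, St3gal6 by 4.14 and St3gal1 by 3.84, and 3 were later, among them St8sia1 by -2.21, 7 of 16 against 44.0% of all windows. In NPCs St3gal6 (-0.92) was called with Cas earlier, and in MEFs St6gal1 (-0.64) with Cas earlier and St6galnac5 (0.58) with 129 earlier, where 4.71% and 12.9% of all windows were called. These shares lie near those of all windows.

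As no RNA was measured, the cell types were checked through the timing of marker genes. Of 8 ESC markers 6 were later in NPCs than in ESCs (Zfp42 by -5.59) and 6 later in MEFs, where 16.1% and 13.7% of all windows were called later. Of 7 NPC markers 4 were earlier in NPCs than in ESCs (background 16.4%), and of 7 MEF markers 5 were earlier in MEFs than in ESCs (Col3a1 by 3.72, background 30.3%). Timing of a marker is not its expression, and the labels are otherwise taken as given.

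Over the 11 lines and embryos, the other 3 genes followed Vim closely, with Pearson's r of 0.95 (Cubn), 0.99 (Trdmt1) and 0.97 (St8sia6) in allelic difference and 0.99, 1.00 and 0.96 in timing. These windows are neighbours, and the correlations are descriptions. Among 18533 protein-coding genes more than 5 Mb away, those most like Vim in allelic difference were Rab38 (r = 0.98), Gap43 (0.97), Bean1 (0.97), Zfp521 (0.97) and Enpp3 (0.97). Rab38 had ESC, NPC and MEF means of 1.12, -0.46 and -0.41, and Gap43, a growth cone protein gene, 1.21, 0.32 and 0.31. A correlation of 0.9 or more with Vim was reached by 281 of these genes (1.52%). In timing the 5 nearest were Cep152, Ccnl1, Eid1, Shc4 and Cript, with r of 0.99 to 1.00. Cep152, Eid1 and Shc4 adjoin one another on chromosome 2, and 12.9% of genes reached 0.9 in timing. The 11 points fall into 3 cell types with shared scaling, which these values also reflect.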

How the data were processed

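The authors' deposited table holds, per the file headers, values for each allele of each profile in 50 kb windows, read here as log2 ratios of early to late signal; the base is not stated. The submitters' processing notes name Bowtie2, SAMtools, bedtools and mm10. How reads were assigned to alleles, smoothed or scaled is not given in the sources used here. The file holds no counts, so depth and its precision are unknown.

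Profiles were averaged per line or embryo and cell type (5 ESC, 2 NPC and 4 MEF). Allelic difference is 129 minus Cas and timing the mean of both alleles. Each was fitted over all 43941 autosomal windows and 11 units by limma 3.58.1 (R 4.3.3, two-sided tests), and media over 8 profiles with the line as covariate. A window was called at p below 0.05 after Benjamini-Hochberg adjustment where its difference also reached 0.5 (1 for timing between cell types). The fits were tested on simulated data. XEN and V6.5 were not tested.

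Named genes were the 4 genes, all protein-coding genes within 1 Mb, the 5 autosomal genes beyond 5 Mb most correlated with Vim in each quantity, and genes of the functional lists, each by the window at its midpoint. Members and lists were chosen with earlier results of these data known. No 2 columns were identical. Replicate numbers did not pair profiles, as judged by how far each profile deviated from the mean of its own group. Over 55 pairs of groups, these deviations of like-numbered profiles correlated at -0.07 to 0.04 in allelic difference and -0.40 to 0.30 in timing. Alternatives were other scalings, samples left out, blocks and call sizes.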

Additional observations from a re-analysis of the deposited data

Results flagged for a closer look

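Over 20 groups of line or embryo values at these genes, 2 had a value far from the rest, where chance flags about 1 in 20 separate groups. These groups are not separate, since the 10 windows include those of each gene and neighbouring windows correlate. The count therefore cannot be set against that rate. Both were F123 ESCs in allelic difference: 2.34 at Trdmt1, with a gap to the next line of 0.838 of the range, and 2.11 over all 10 windows, with a gap of 0.891 of the range.

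At several genes every MEF embryo had the opposite sign to every ESC line in 129 minus Cas, and the difference between ESCs and MEFs was not tested. St8sia6 had a MEF mean of -0.0916 against 1.65 in ESCs, Hacd1 -0.36 against 0.69, Stam -0.47 against 0.55, Tmem236 -0.65 against 0.78, Mrc1 -0.80 against 0.86 and Slc39a12 -0.51 against 0.86. The same held between MEFs and both NPC lines at Pter (-0.10 against 0.20), Hacd1 (-0.36 against 0.44), Stam (-0.47 against 0.51), Tmem236 (-0.65 against 0.62) and Mrc1 (-0.80 against 0.50). For those pairs limma's test of MEFs against NPCs called all windows of Stam, Tmem236 and Mrc1, 1 of 2 of Hacd1 and none of Pter.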

How the results depend on the processing

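The share of the 10 windows called was taken as moved if it changed by over 1.5 times, and the XEN and V6.5 means if they changed by 1 SD or more. This happened in 1 recalculation and in none of the other 220, which include those of the ESC contrast that chose the genes. For NPC minus ESC timing the share fell from 70.0% to 30.0% when the minimum size was doubled. With a line, embryo or profile left out that share ran from 60.0% to 70.0% and that for feeders minus 2i timing from 60.0% to 80.0%, while those for MEF timing stayed at 100.0% and those for NPC and MEF alleles and the culture effect on alleles at 0.0%. The replicate block on profiles left 70.0% for NPC minus ESC timing and for feeders minus 2i timing, 100.0% for MEF timing and 0.0% for the allelic results outside ESCs, and changed no call. Either XEN profile alone gave 0.30 or -0.14. Over all windows, MEF alleles had 5654 calls, 1959 without embryos 1 and 3 and 2541 with female labels only. NPC alleles had 2068, from 0 with NPCs fitted alone and 567 without Cas129 NPCs to 3517 without replicate 1 of them, and 1350 with the replicate block. MEFs against NPCs in alleles had 2821, from 345 without embryos 1 and 3 to 5440 with only those groups fitted. Feeders minus 2i timing had 5618, and 2800 without replicate 1 of F121-6 in 2i. Doubling the minimum size left 4036 of 14273 calls for NPC minus ESC timing, 8022 of 19341 for MEF minus ESC and 4639 of 14643 for MEF minus NPC. Leaving out single Cas129 NPC or XEN profiles was chosen after seeing the data.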

Other observations

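In the XEN line, genes on both sides had C57B6 later than Cas on average over the 2 profiles, with C57B6 minus Cas of -0.77 at Itga8, -0.73 at Mindy3, -0.40 at Pter and -0.30 at C1ql3 upstream, and -0.24 at Tmem236, -0.36 at Mrc1, -0.62 at Slc39a12 and -0.35 at Cacnb2 downstream, while Rsu1, next to Cubn, had 0.01 and Cubn 0.34. These are values of 1 line with no test, and at Trdmt1, Vim and St8sia6 the sign changed between the 2 profiles.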
